A study of Mus musculus with 12 samples.

Results

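The small leucine-rich proteoglycans are secreted proteins of the extracellular matrix, and 9 of their genes are described here among the 55573 genes counted: Ogn (osteoglycin, also called mimecan), Omd (osteomodulin), Aspn (asporin), Dcn (decorin), Lum (lumican), Bgn (biglycan), Fmod (fibromodulin), Prelp (prolargin) and Podn (podocan). They were chosen by symbol, because Ogn was already known to be among the genes with a large rise in these data, to ask whether that rise was shared by its family and by its neighbours Omd and Aspn. The measurements of Ogn are therefore given as a description, with no test. Each of the 9 symbols matched 1 gene of the table.

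Gene expression was measured by RNA sequencing of tumourspheres, which are free-floating clusters grown from tumour cells, of 3 mouse spindloid tumour cell lines named A1005, A1129 and A1471. The genotype of every line is MMTV-Metmt;Trp53fl/+;Cre, that is, a mutant Met receptor transgene driven by the mammary tumour virus promoter together with 1 floxed allele of Trp53 and Cre, and the tissue of origin is a breast tumour. All 4 treatment groups share this genotype. Over 24 h each line received the vehicle DMSO, Crizotinib (an inhibitor of the Met kinase), PD173074 (an inhibitor of the FGF receptor kinases) or both drugs, called the combination, so that each treatment has 3 libraries, 1 from each line, and the line is the replicate. The 12 libraries held 13031492 to 17750476 counts each. One count was worth 0.0556 to 0.0781 CPM, which is the count scaled to library size, and intervals given for counts cover counting error only, since the reads carried no molecular identifiers and need not be independent. No label says whether the 4 treatments of a line came from separate cultures, so P values measure only the spread between these libraries.

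Decorin, biglycan and asporin form the class of the family that usually carries chondroitin or dermatan sulphate chains or none, lumican, fibromodulin, prolargin and osteomodulin form the keratan sulphate class, and osteoglycin belongs to a further class. Most members bind fibrillar collagen through their leucine-rich repeats and limit or order the growth of collagen fibrils, and some, above all decorin, also bind growth factors such as TGF-beta and receptors that include Met and Egfr. In the normal mammary gland and in breast tumours they are mainly products of stromal fibroblasts.

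Ogn, Omd and Aspn lie side by side in the same orientation on mouse chromosome 13. In the GENCODE annotation of the build used for the counts (mm10), Aspn spans chr13:49544443-49567565, Omd chr13:49582462-49592822 and Ogn chr13:49608046-49624501, all on the plus strand, with gaps of 14.9 kb between Aspn and Omd and 15.2 kb between Omd and Ogn. All 3 lie within Cenpp, a centromere protein gene on the minus strand that spans chr13:49464023-49652785. Exons of Ogn and Omd share 0 bases with those of Cenpp, and exons of Aspn share 7 bases. The 250 bases before the start of each of these 3 genes are shown because Ogn and Omd moved together and Aspn lies beside them. They were taken from RefSeq (GRCm38.p6, plus strand), which held a start for 7 of the 9 members, not Dcn or Lum. The windows are chr13:49607765-49608014 for Ogn, chr13:49582212-49582461 for Omd and chr13:49544193-49544442 for Aspn. They are written 5′ to 3′, and capitals mark the matches to 7 short motifs.
Ogn: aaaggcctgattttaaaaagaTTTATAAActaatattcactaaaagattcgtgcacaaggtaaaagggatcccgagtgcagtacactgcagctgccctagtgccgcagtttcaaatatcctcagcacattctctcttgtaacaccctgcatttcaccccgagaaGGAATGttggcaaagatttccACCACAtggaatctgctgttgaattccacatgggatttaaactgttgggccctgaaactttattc
Omd: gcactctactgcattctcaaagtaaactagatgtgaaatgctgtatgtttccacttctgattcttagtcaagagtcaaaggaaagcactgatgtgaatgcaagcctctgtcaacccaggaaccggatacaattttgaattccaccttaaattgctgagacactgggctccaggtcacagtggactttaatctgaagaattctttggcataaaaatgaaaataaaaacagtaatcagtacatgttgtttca
Aspn: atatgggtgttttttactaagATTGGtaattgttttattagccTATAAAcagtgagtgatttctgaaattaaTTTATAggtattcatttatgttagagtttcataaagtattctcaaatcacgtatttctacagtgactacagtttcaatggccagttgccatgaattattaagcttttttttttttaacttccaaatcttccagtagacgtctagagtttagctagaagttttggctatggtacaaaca

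The motifs searched on both strands were the TATA box TATAAA, the AP-1 site TGANTCA, the ETS site CCGGAA, the FOX site TGTTTAC, the TEAD site GGAATG, the RUNX site TGTGGT and the CCAAT box CCAAT. The Ogn window held TATAAA on each strand in 2 overlapping matches that begin 229 and 227 bases before the start. It also held GGAATG 86 bases and the reverse complement of TGTGGT 65 bases before the start. The Aspn window held TATAAA on each strand and the reverse complement of CCAAT, and none of the 7 motifs was found in the Omd window. Of all 32851 promoter windows in the table, 12.4% held TATAAA, 12.6% GGAATG, 14.0% TGTGGT and 33.8% CCAAT. The windows of Ogn, Omd and Aspn held 42.0%, 38.4% and 30.0% G and C, against a median of 52.4% over all windows. These are matches of letters, not measured binding sites.

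Ogn was close to the detection limit without FGF receptor inhibition and abundant with it. In lines A1005, A1129 and A1471 the counts of Ogn were 13, 3 and 0 with DMSO and 14, 2 and 1 with Crizotinib. They were 587, 175 and 216 with PD173074. They were 1996, 1266 and 231 with the combination. Every library with PD173074 or the combination was above every library without PD173074, and line A1005 was the highest within each treatment. Of all genes tested, 3.35% were above DMSO without overlap with PD173074 and 13.8% with the combination. In CPM, scaled between libraries by the trimmed mean of M values, Ogn averaged 0.404 ± 0.538 with DMSO (SD, n = 3 lines), 0.387 ± 0.494 with Crizotinib, 21.1 ± 12.5 with PD173074 and 69.3 ± 47.6 with the combination.

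**Figure D1:**
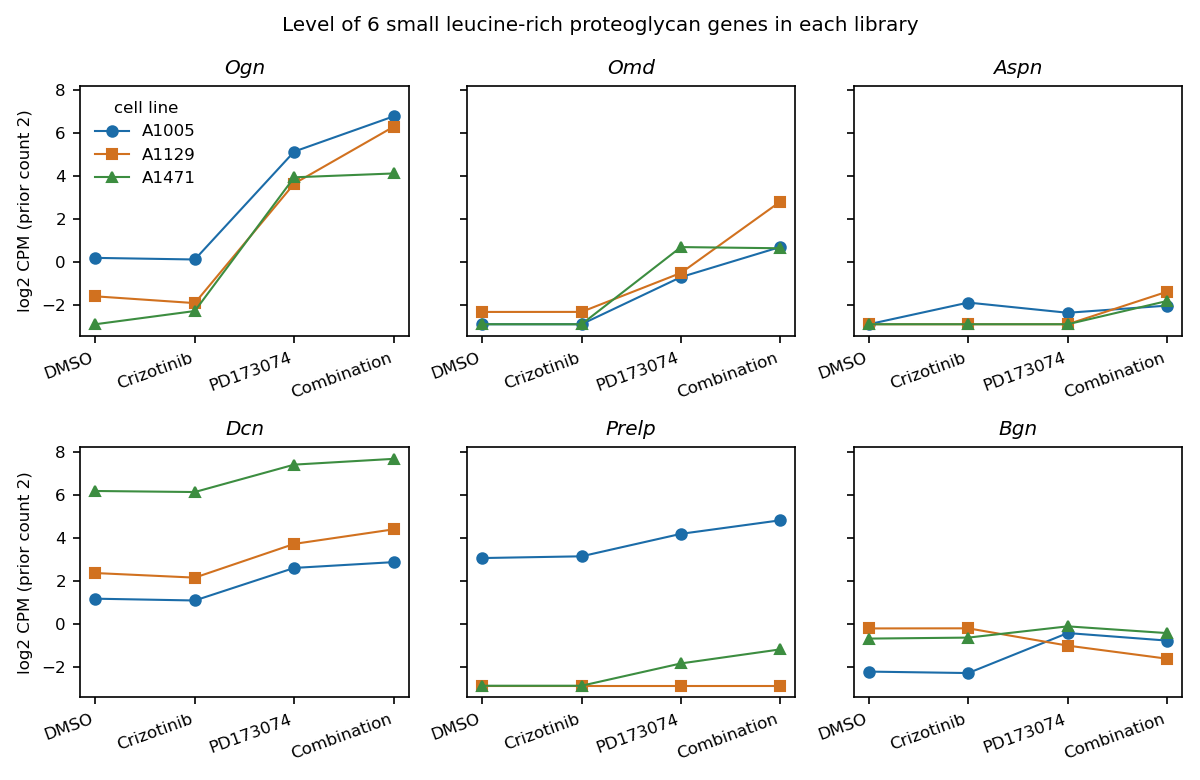
Level of 6 members in each library, as log2 CPM with a prior count of 2 on the y axis and the 4 treatments on the x axis. Points are single libraries and lines join the libraries of 1 cell line. Ogn and Omd are low with DMSO and Crizotinib and higher with PD173074 and the combination in all 3 lines, whereas the lines keep their order for Dcn and only A1005 has appreciable Prelp.

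Within A1005, Ogn was 109-fold higher with the combination than with DMSO (95% counting interval 63.8 to 206). Within A1129 the ratio was 402 (137 to 1952), resting on 3 counts with DMSO. Within A1471, where DMSO had 0 counts, the ratio was 84.1 against a floor of 3 counts in that library. The lower end of its counting interval was 67.9. With PD173074 alone the corresponding ratios were 35.0 in A1005, 63.5 in A1129 and, against the floor, 74.2 in A1471 (lower end of the counting interval 59.8). The fitted log2 fold change, from edgeR over all 12 libraries, was 7.43 for the combination and 5.72 for PD173074 against DMSO, values that depend on the prior count because DMSO was near 0. With Crizotinib alone it was -0.02. In bulk RNA, a rise in the number of cells that express a gene and a rise of its RNA per cell cannot be told apart.

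The 3 lines differed in how much Crizotinib added to PD173074. The combination had 3.13 times as much Ogn as PD173074 alone in A1005 (2.85 to 3.44) and 6.34 times as much in A1129 (5.41 to 7.46). In A1471 the ratio was 1.13 (0.937 to 1.37), an interval that includes 1. The fitted log2 difference was 1.71, and the log2 changes by line, on the log2 CPM scale with a prior count of 2, were 1.64, 2.65 and 0.18. Each line has 1 library per treatment, so the difference between lines was not tested.

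Omd, whose product is a keratan sulphate proteoglycan known from bone and tooth matrix, had the next largest fold change after Ogn among the tested members. Its counts in A1005, A1129 and A1471 were 0, 1 and 0 with DMSO and 0, 1 and 0 with Crizotinib. They were 8, 8 and 21 with PD173074. They were 27, 111 and 19 with the combination. No library with PD173074 or the combination overlapped the libraries without PD173074, as for 3.35% of all genes in PD173074 and 13.8% in the combination, counted as groups above DMSO without overlap. Summed over the lines, Omd was 141 times as high with the combination as with DMSO, with a counting interval of 25.0 to 5618 because DMSO held 1 count. By line, against a floor of 3 counts, the ratio was 6.41 in A1005 and 6.92 in A1471. The lower ends of their counting intervals were 4.86 and 5.10. In A1129 Omd was 106-fold higher (18.6 to 4215).

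Because the counts of Omd without PD173074 were near 0, it entered the test only through the groups in which it was high. Its tests, that of the combination against PD173074 included, therefore describe the size of a difference and add no support to it. For the combination against DMSO the fitted log2 fold change was 6.71 (SE 1.28, adjusted P = 0.00788, edgeR quasi-likelihood test without pairing, Benjamini-Hochberg over 13836 genes). Of the 8 members other than Ogn, 4 had enough counts to be tested, namely Omd, Dcn, Bgn and Prelp. Omd was the 1 of these 4 past the threshold, where 14.4% of all genes tested were (6.1% higher and 8.28% lower), and given how it entered the test nothing is read from that count. Without A1129 the log2 fold change of Omd was 7.45 and the adjusted P was 0.0922, and without A1471 they were 6.65 and 0.106. The combination against Crizotinib gave a log2 fold change of 6.73 (SE 1.27, adjusted P = 0.00826), with 13.2% of all genes passing. These comparisons share the combination libraries.

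**Figure D2:**
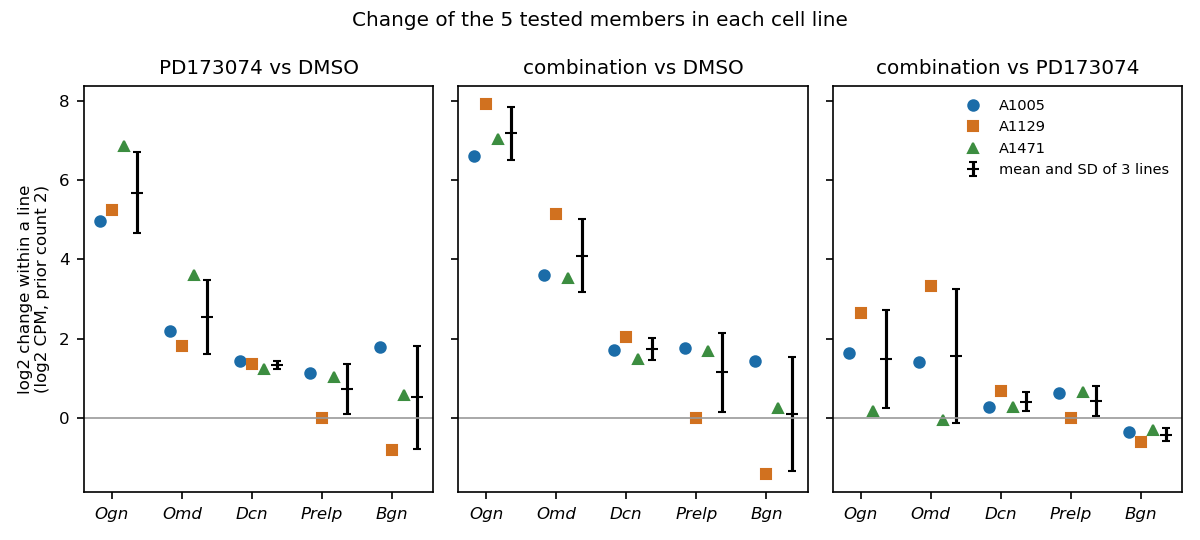
Log2 change within each cell line for the 5 tested members (y axis, difference of log2 CPM with a prior count of 2), for PD173074 and the combination against DMSO and for the combination against PD173074. Coloured points are single lines and the black bars are the mean and SD of the 3 lines. Ogn and Omd lie highest in both comparisons with DMSO, where Dcn lies between 1.23 and 2.04 in every line, and Bgn lies on both sides of 0.

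With PD173074 alone no gene passed the unpaired test (0% of 13836 genes, lowest adjusted P = 0.566), although 307 genes had an unadjusted P under 0.05 and DESeq2 called 14. PD173074 and the combination were compared with the same DMSO libraries. Omd had a log2 fold change of 4.76 (SE 1.23, unadjusted P = 0.00308, adjusted P = 1). When the cell line was added to the model as a block, so that libraries were compared within a line, it was 4.95 (adjusted P = 0.0592), and 2.14% of all genes passed. For the combination against PD173074, Omd had a log2 difference of 1.95 without the block (adjusted P = 0.307, with 4.77% of genes passing) and 1.69 with it (SE 0.569, adjusted P = 0.0378, with 39.8% passing). The blocked call was lost without A1005 (adjusted P = 0.119) and without A1129 (log2 difference 0.70, adjusted P = 0.401). By line the log2 differences were 1.40, 3.33 and -0.06, and the 19 counts with both drugs in A1471 were 0.959 times the level with PD173074 alone (0.488 to 1.87).

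The proportion of Omd to Ogn was lowest in A1005 with either treatment. Of all counts of Ogn and Omd together, Omd made up 1.35% with PD173074 (exact 95% interval 0.582 to 2.63) and 1.33% with the combination (0.881 to 1.94) in A1005. In A1129 the shares were 4.37% (1.91 to 8.43) and 8.06% (6.68 to 9.63), and in A1471 they were 8.86% (5.57 to 13.2) and 7.60% (4.64 to 11.6). These intervals cover the counting error of 1 library each, and the difference between lines was not tested. The exons of the genes are of like length, 2566 bases for Ogn and 2249 for Omd.

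Aspn, the third gene of the row, whose product binds collagen and TGF-beta, stayed near the floor. It had 0 counts in all 3 DMSO libraries, 2, 0 and 0 with Crizotinib, 1, 0 and 0 with PD173074 and 2, 4 and 2 with the combination. The combination libraries were all above those with DMSO, as for 13.8% of all genes tested. In A1005, however, Crizotinib alone gave the same 2 counts as the combination. The 8 counts with the combination were too few for the test, and nothing is read from this separation. Without the filter on low counts its log2 fold change was 4.39 (SE 1.62, adjusted P = 0.201). Ecm2, which codes for a related leucine-rich repeat matrix protein 11.7 kb beyond Aspn, was at 1, 4 and 0 counts in DMSO and 15, 10 and 1 in the combination, and it was not tested either.

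Of the 34 annotated genes within 500 kb of Ogn, 11 had enough counts for the test, and Ogn and Omd were among them. None of the other 9 rose with the combination. Without the block 0 of the 9 passed, and with it 4 fell, against 26.2% of all genes that fell and 28.6% that rose in that fit. Those 4 were Iars, the isoleucyl-tRNA synthetase gene (log2 fold change -0.98, SE 0.112, adjusted P = 7.31e-05), Cenpp (-1.43, SE 0.237, adjusted P = 0.000653), Card19 (-0.71, adjusted P = 0.00237) and Ippk, an inositol phosphate kinase gene (-0.47, adjusted P = 0.00531). Cenpp, the gene that encloses the row, went from 137, 225 and 321 counts in DMSO to 57, 124 and 86 in the combination.

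**Figure D3:**
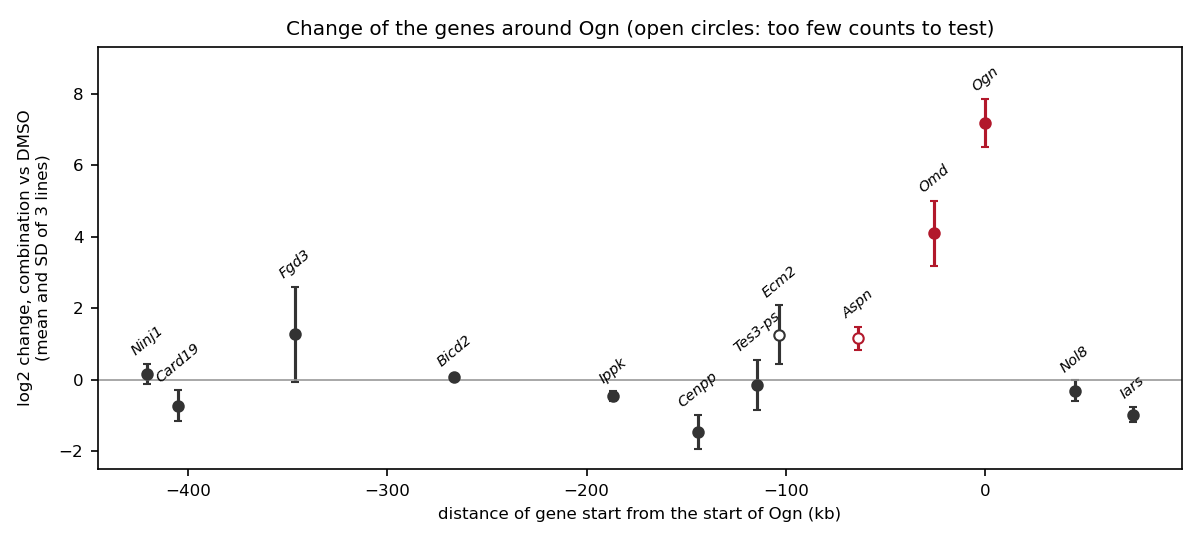
Log2 change with the combination against DMSO (y axis, mean and SD of 3 lines, prior count 2) by the distance of each gene's start from that of Ogn in kb (x axis). Filled circles are the 11 tested genes, open circles are Aspn and Ecm2, which were too low to test, and red marks the 3 members. Ogn and Omd stand above every other gene shown, and Iars, Cenpp, Card19 and Ippk lie below 0.

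Dcn, the best studied member, a collagen-binding proteoglycan that also binds TGF-beta and the Met receptor, rose within every line by a smaller factor and from very different starting levels. Its counts in A1005, A1129 and A1471 were 27, 76 and 1050 with DMSO. They were 29, 65 and 975 with Crizotinib. They were 98, 182 and 2389 with PD173074 and 129, 334 and 2717 with the combination. A1471 was the highest line in every treatment, and its DMSO library exceeded the combination libraries of both other lines.

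Within the lines Dcn was 3.40 (2.23 to 5.36), 4.19 (3.26 to 5.45) and 2.83 (2.63 to 3.04) times as high with the combination as with DMSO. Without pairing, the spread between lines gave a log2 fold change of 1.55 with an SE of 1.87 (adjusted P = 0.650). With the line as a block it was 1.76 (SE 0.143, adjusted P = 9.61e-06). In that fit 3 of the 4 tested members passed, Dcn, Omd and Prelp, all higher, against 54.8% of all genes (28.6% higher). Nothing is read from that count, since Omd entered the test only through the groups in which it was high. Prelp was measured almost only in A1005. With PD173074 alone, Dcn was 2.81 (1.82 to 4.48), 2.61 (1.98 to 3.45) and 2.35 (2.18 to 2.52) times the DMSO level. That difference was 1.34 on the log2 scale with the block (SE 0.144, adjusted P = 0.00380, 1.62% of all genes higher) and 1.25 without it (adjusted P = 1). Leaving out A1471 from the blocked fit ended this call with PD173074 (adjusted P = 0.128), though the log2 fold change, 1.45, was no smaller. Only 4 genes of all those tested passed in that fit, against 296 with all lines. Leaving out A1005 or A1129 did not end the call (adjusted P = 0.0379 and 0.0169), and 59 and 131 genes passed there.

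Crizotinib alone left Dcn at a log2 fold change of -0.10 (SE 0.150, 95% interval -0.47 to 0.26, adjusted P = 1, with the block). Added to PD173074 it was followed by a further log2 difference of 0.42 with the block (SE 0.133, adjusted P = 0.0298). This call was lost when any 1 of the 3 lines was left out (adjusted P from 0.0626 to 0.148). Lum, which lies 47.0 kb from Dcn on chromosome 10 and whose product, lumican, also regulates collagen fibrils, had 1 count in all 12 libraries together. Kera and Epyc, the next members of the wider family in that row, had 0 counts in every library, which allows up to 3 counts in each.

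Prelp, which codes for a basement membrane anchor protein, was measured almost only in A1005. Its counts there were 105 with DMSO, 127 with Crizotinib, 299 with PD173074 and 505 with the combination. In A1129 it had 0 counts in all 4 libraries, and in A1471 it had 0, 0, 2 and 4. Within A1005 it was 3.43 times as high with the combination as with DMSO (2.77 to 4.27) and 2.20 times as high with PD173074 (1.76 to 2.78), which is 1 line and no test. Over all lines the log2 fold change with the combination was 1.79 (SE 3.06, adjusted P = 0.765) without the block and 1.89 (SE 0.421, adjusted P = 0.00712) with it. Without A1005 its counts were too low to be tested. Prelp shares 350 exon bases with Gm15851 on the other strand, and Gm15851 had at most 2 counts in a library.

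Optc and Fmod, the neighbours of Prelp on chromosome 1, were at most 6 and 3 counts in a library. Optc codes for opticin, a proteoglycan known from the eye, and had 0 counts with DMSO, 3 with PD173074 and 9 with the combination over the 3 lines. Fmod, which codes for a collagen cross-linking modulator, had 3 counts, all in the A1005 library with the combination.

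Bgn, the closest relative of Dcn, was low in every library and did not pass the test in any comparison. It had 1, 11 and 7 counts with DMSO, 1, 11 and 7 with Crizotinib, 10, 5 and 11 with PD173074 and 8, 3 and 8 with the combination. The log2 fold change with the combination was -0.07 (SE 0.870, 95% interval -2.08 to 1.94, adjusted P = 0.974), an interval that does not exclude a change as large as that of Dcn. A1005 was higher and A1129 lower with the combination than with DMSO. Podn, which codes for a podocyte and smooth muscle matrix protein, had at most 2 counts in every library but that of A1471 with the combination, which had 6.

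No tested member passed the test with Crizotinib alone, where 0% of genes passed with or without the block and DESeq2 called 1. An unadjusted P under 0.05 was found for 18 genes without the block and 258 with it. For the departure from additivity, the difference between the combination and the summed log2 changes of the single drugs, 0 of the 4 tested members passed in either fit, against 0.918% of all genes without the block and 16.2% with it. At an unadjusted P under 0.05 there was 1 of the 4 with the block, against 4521 of all 13836 genes, and 0 without it, against 1250. For Ogn that departure was 1.73 on the log2 scale, with values of 1.72, 2.97 and -0.44 in A1005, A1129 and A1471.

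Per length of exon, the leading member of the family changed with treatment in 2 of the 3 lines. RPKM, the CPM per kilobase of exon, allows levels to be compared between genes. With DMSO, Prelp made up 74.7% of the summed RPKM of the 9 members in A1005, and Dcn made up 78.1% in A1129 and 99.4% in A1471. With the combination, Ogn made up 81.4% in A1005 and 81.9% in A1129, whereas Dcn kept the lead in A1471 with 81.9% and Ogn had 15.8%. The summed RPKM rose from 3.04 to 53.1 in A1005, from 1.10 to 37.7 in A1129 and from 12.5 to 42.9 in A1471. These shares depend on exon lengths from the annotation.

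**Figure D4:**
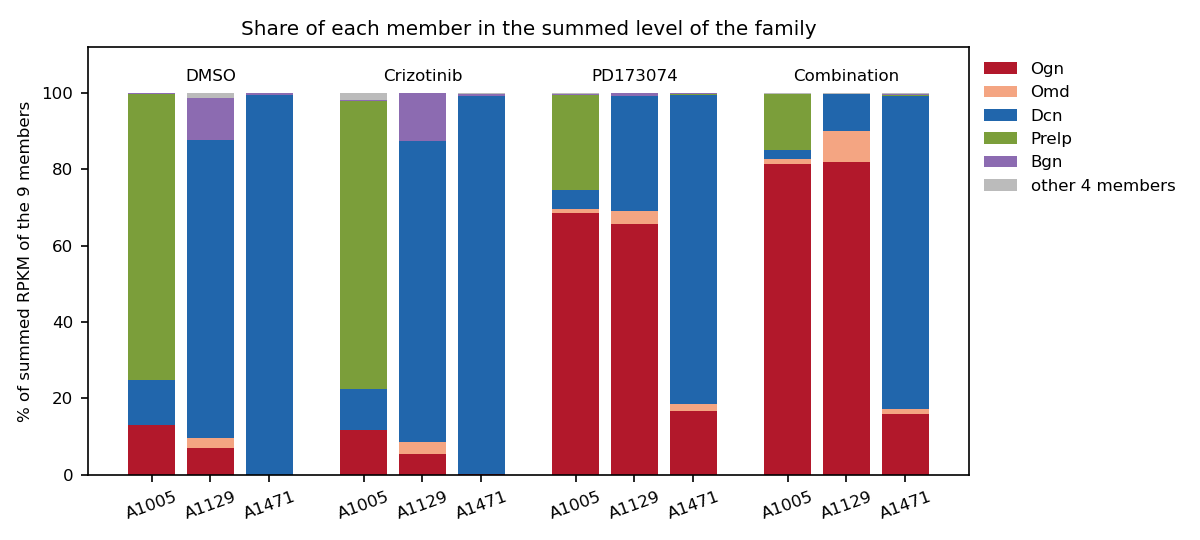
Share of each member in the summed RPKM of the 9 members (y axis, percent), 1 bar per library, grouped by treatment. Prelp (A1005) or Dcn (A1129 and A1471) leads with DMSO and Crizotinib, and Ogn leads with PD173074 and the combination in A1005 and A1129 but not in A1471.

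The genes whose pattern was most like that of Ogn were found by Pearson's r of log2 CPM centred within each line, over 12 libraries and 12687 genes whose average log2 CPM was 0 or more. The first 5 were Enah, an actin regulator (r = 0.990), Dcn (0.989), Mme, the membrane endopeptidase neprilysin (0.985), Lbp, the lipopolysaccharide-binding protein (0.984), and Rab30, a small GTPase (0.984). Omd ranked 15 with r = 0.973. Prelp had 0.762 and Bgn 0.152, and the median over all genes was -0.01 with a 95th percentile of 0.887. The points share the 3 lines and the same control libraries, and without the centring r of Dcn with Ogn was 0.11. A1471, the line with the most Dcn, had the least Ogn with DMSO, Crizotinib and the combination but not with PD173074. Mme was counted 201, 8 and 17 times in the DMSO libraries and 5493, 484 and 888 times in those with both drugs. As these genes were chosen for their likeness to Ogn, their changes are given with no test, except for Dcn, which is tested above as a member.

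The collagens and other fibres that the family binds were mostly higher with the combination when lines were paired. Of 17 listed genes 15 were tested, and with the block 12 rose and 1 fell, where 28.6% of all genes rose and 26.2% fell, with a median log2 fold change of 1.63 in the unpaired fit against 0.02 over all genes. Without the block 1 rose, Col6a1, which codes for a microfibrillar collagen chain (log2 fold change 1.63, adjusted P = 0.0276) and was picked out after its value was seen. With PD173074 alone 8 of the 15 rose with the block, against 1.62% of all genes, and 0 without it. This list and the gene lists that follow were drawn up with earlier results of these data known. Their counts are therefore a description and add no support. Col12a1, a fibril-associated collagen gene, was counted 168, 8 and 1 times with DMSO and 2474, 108 and 452 times with both drugs. Its log2 fold change was 4.33 with the block (SE 0.578, adjusted P = 0.000186) and 3.71 without it (adjusted P = 0.259).

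Col11a1, a fibril-nucleating collagen gene, was counted 0, 16 and 2 times with DMSO and 2, 518 and 669 times with both drugs, so that it was found in A1129 and A1471 and not in A1005. Its 0 and 2 counts with DMSO lay under the 10 of the filter on low counts. Its place among the genes that rose therefore adds no support. Col1a2, a chain of type I collagen, was counted almost only in A1005, at 1697, 0 and 0 counts in DMSO against 13903, 6 and 10 in the combination. Its log2 fold change with the block was 2.59 (adjusted P = 0.000110), with nearly all of these counts from 1 line. Col6a2 had a log2 fold change of 1.68 with the block (adjusted P = 0.000525) and 1.90 without it (adjusted P = 0.132). Fbn1, the fibrillin gene, was the 1 that fell with the block (log2 fold change -0.66, adjusted P = 0.0469).

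**Figure D5:**
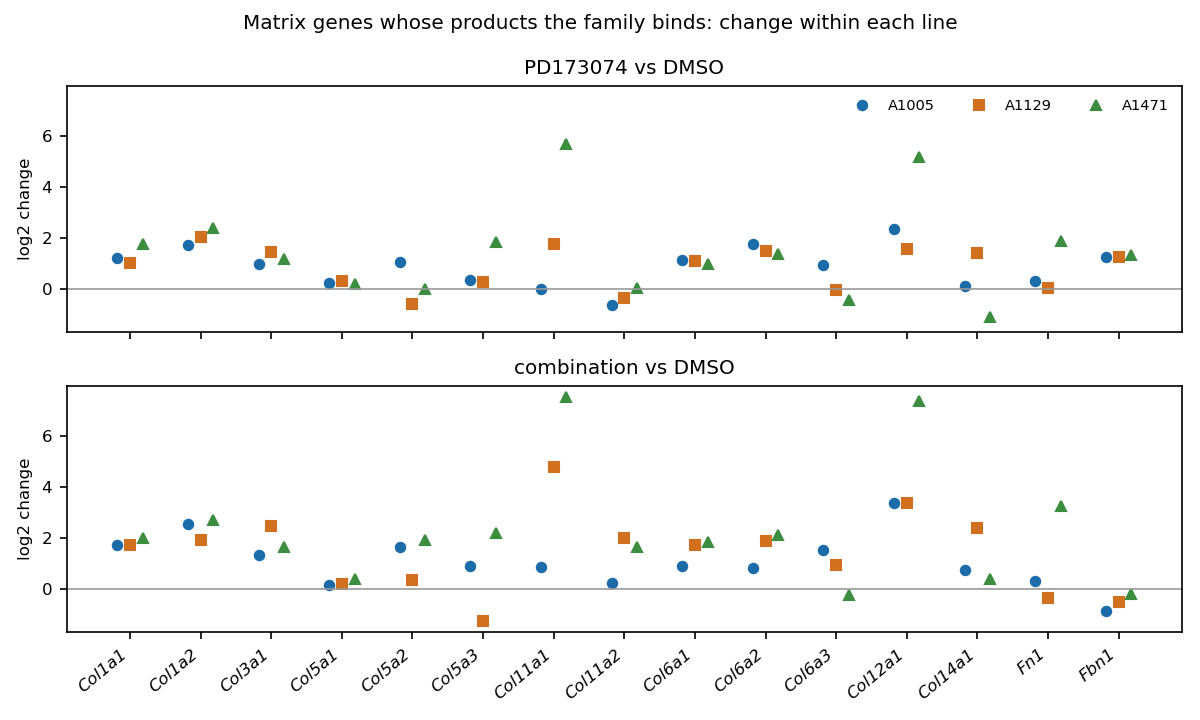
Log2 change within each line (y axis, prior count 2) of the 15 tested genes of the collagens and other fibres, with PD173074 against DMSO above and the combination against DMSO below. Col11a1 and Col12a1 reach the highest values, in A1471, Col1a1, Col1a2, Col3a1, Col5a1, Col6a1, Col6a2 and Col12a1 are above 0 in every line in both panels, and Fbn1 is below 0 in every line with the combination.

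The enzymes that build the glycan chains of these proteins changed in both directions. For chondroitin and dermatan sulphate synthesis 21 of 22 genes were tested, with 0 higher and 1 lower without the block, 5 higher and 5 lower with it, and the median change was -0.02 (log2). Over all genes 6.1% were higher and 8.28% lower without the block, and 28.6% were higher and 26.2% lower with it, so these counts were not above those of all genes in either direction. The 1 lower gene was Csgalnact1, which starts chondroitin chains and went from 270, 567 and 808 counts to 133, 83 and 53 (log2 fold change -2.78, adjusted P = 0.00358). For keratan sulphate synthesis 6 of 8 were tested, with a median of -0.46, and Fut8, a fucosyltransferase gene, was the 1 that fell without the block (log2 fold change -1.07, adjusted P = 0.0259). With the block 1 rose, B4galt4 (1.49, adjusted P = 0.000932), and 2 fell.

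Of the proteases that process or cleave these proteins 9 of 11 were tested, and 3 rose without the block against 6.1% of all genes, 5 rose and 1 fell with it against 28.6% and 26.2%, and the median was 1.52 (log2). Adamts4, an aggrecanase gene, went from 585, 414 and 379 counts to 2263, 1560 and 11869 (log2 fold change 3.50, adjusted P = 0.0374). Mmp14, a membrane-bound collagenase gene, rose by a log2 fold change of 2.14 (adjusted P = 0.0492). Of the receptors 10 of 11 were tested, with 1 higher without the block against 6.1% of all genes, 3 higher and 1 lower with it against 28.6% and 26.2%, and a median of 0.42. Their share that rose was near that of all genes. The 1 without the block was Tlr2, an innate immune receptor that biglycan and decorin can bind, which went from 147, 101 and 139 counts to 2368, 839 and 1018 (log2 fold change 3.23, adjusted P = 0.00139).

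TGF-beta ligands, receptors and linked genes had 10 of 12 tested, 1 higher without the block against 6.1% of all genes and 4 higher with it against 28.6%, and their median was 0.46 (log2). Tgfb2, a ligand that decorin can bind, rose from 82, 35 and 39 counts to 836, 258 and 477 with the combination (log2 fold change 3.11, adjusted P = 0.0201). Of 9 further members of the wider family 3 were tested, with a median of -0.11, and 1 rose in either fit. That was Chadl, a chondroadherin-like gene that went from 7, 13 and 3 counts to 172, 27 and 122 (log2 fold change 3.65, adjusted P = 0.0430). Its 7 and 3 counts with DMSO lay under the 10 of the filter on low counts. The test of Chadl therefore describes the size of a difference and adds no support to it. Of the larger proteoglycans 12 of 23 were tested, with 1 higher without the block against 6.1% of all genes, 6 higher and 2 lower with it against 28.6% and 26.2%, and a median of 0.60. Vcan, the versican gene, had a log2 fold change of 1.45 with the block (adjusted P = 0.000682) and 1.17 without it (adjusted P = 0.338). Acan, the aggrecan gene, had -1.10 with the block (adjusted P = 0.0114) and -1.06 without it (adjusted P = 0.842).

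The markers of cell types that normally make these proteins were mixed. Beside their counts of changed genes, 6.1% of all genes rose and 8.28% fell without the block, and 28.6% rose and 26.2% fell with it. Summed CPM of 10 fibroblast markers was 315 to 1105 with DMSO and 520 to 1025 with the combination, Thy1 and Fap had at most 3 counts in every library, and 2 of 5 tested markers (Pdgfrb and Pdgfra) rose and 1 (Cd34) fell with the block. Without it 0 of the 5 passed. Summed CPM of 10 bone and cartilage markers was 185 to 237 with DMSO and 236 to 454 with the combination, Sp7, Bglap, Bglap2 and Matn1 had at most 3 counts throughout, and 1 of 3 tested, Sox9, rose with the block and 0 without it. Of 4 tendon markers Scx, a tendon transcription factor, rose without the block (log2 fold change 2.06, adjusted P = 0.0131) while Tnmd had at most 3 counts, the block added Mkx, and their sum was 10.1 to 25.7 with DMSO and 36.5 to 74.1 with the combination. The part of these markers in the change of the family was not tested.

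Mesenchymal markers were far more abundant than epithelial ones in all libraries. Summed CPM was 2456 to 8486 over 7 mesenchymal markers and 7.39 to 82.9 over 7 epithelial markers across the 12 libraries, with Krt5 at 3 counts or fewer. Of the mesenchymal markers 1 of 5 tested fell without the block, against 8.28% of all genes, namely Twist1 (log2 fold change -1.09, adjusted P = 0.00156). With the block 1 rose and 1 fell, against 28.6% and 26.2% of all genes. Of the epithelial markers 0 of 3 tested passed without the block and 2, Krt18 and Krt19, fell with it, against 26.2% of all genes. Endothelial markers summed to at most 0.501 CPM, with 0 of 4 high enough to test. The 6 leukocyte markers summed to 4.54 to 42.2 CPM, with Adgre1 and Cd3e at 3 counts or fewer. Of 2 tested 0 passed without the block and 1, Cd68, rose with it, against 28.6% of all genes.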

How the data were processed

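Total RNA of the 12 libraries was sequenced by the authors on a NextSeq500 instrument. Per the labels, bcl2fastq, STAR and HTSeq were used with the mouse genome build mm10, with versions, annotation and the use of strand not given in the sources used here. The authors deposited raw counts, whole numbers of reads per gene, without normalization. Overlapping and antisense genes are therefore uncertain. Exon lengths and positions came from GENCODE M21, which held 55394 of the 55573 genes, and promoter sequences from RefSeq.

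Low counts were removed by filterByExpr (at least 10 counts, and 15 in total), library sizes were scaled by TMM, and edgeR 4.0.16 in R 4.3.3 gave quasi-likelihood tests from 1 fit of the 4 treatments over all 12 libraries without a block, as the study's methods state an unpaired analysis. P values were adjusted by Benjamini-Hochberg over 13836 genes with a threshold of 0.05. Reported CPM are TMM-scaled, and log2 CPM used a prior count of 2. Standard errors were derived from the fold change and the F statistic, and intervals of fold changes used the residual degrees of freedom alone.

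The line in the labels pairs the libraries across treatments. Deviations from the treatment means correlated by 0.766 to 0.962 over 18 pairs of libraries of the same line and by at most -0.05 over 36 pairs of different lines and treatments. Removing the mean of each treatment pushes the values between different lines towards the negative, so this contrast is partly fixed in advance. The fit with the line as a block is given where it changes a call. No pair of libraries agreed within sampling noise (lowest chi-square per degree of freedom 4.90 over 66 pairs).

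Alternatives were the block, DESeq2 1.42.0, its size factors, no filter, a fit of the compared groups alone, a log2 fold change limit of 1.5 in size, a prior count of 0.5 and each line left out. The block with a line left out was chosen later, with values known. The edgeR fits with and without the block were also run on simulated counts, for the combination against DMSO alone. Python 3.11.15, pandas 2.3.3 and matplotlib 3.10.9 were used for tables and plots.

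The members and the gene lists were chosen with earlier results of these data known. Genes were named by a rule: every member, every gene within 500 kb of Ogn by counts and with values where past the threshold, up to 4 genes per list with the largest fold change among those past the threshold with or without the block, and the 5 genes most like Ogn. Matrix, receptor and marker genes named beyond this were picked after their values were seen.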

Additional observations from a re-analysis of the deposited data

Results flagged for a closer look

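For 3 members the values of the lines had opposite signs within the same comparison, on the log2 CPM scale with a prior count of 2. Each line has 1 library per treatment, so these differences were not tested. Bgn, with 1 to 11 counts per library, changed by 1.44 in A1005, -1.41 in A1129 and 0.26 in A1471 with the combination against DMSO, by 1.80, -0.80 and 0.57 with PD173074 against DMSO and by 1.51, -1.42 and 0.21 with the combination against Crizotinib. Omd changed by 1.40 in A1005, 3.33 in A1129 and -0.055 in A1471 with the combination against PD173074, and its departure from additivity was 1.40, 3.32 and -0.055. For Ogn the departure in A1005, A1129 and A1471 came to 1.72, 2.97 and -0.44. The values below 0 do not show a fall of Omd or Ogn in A1471, since the ratio of Omd there had a counting interval of 0.488 to 1.87 and that of Ogn 0.937 to 1.37, and the departure of Ogn also rests on 1 count with Crizotinib against 0 with DMSO. Groups of 3 libraries are too small for a test of single outlying samples.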

How the results depend on the processing

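The number of members other than Ogn that passed the test depended on pairing. Omd, which entered the test only through the groups in which it was high, is among the members counted, so these counts describe the processing alone. With the line as a replicate block it rose from 1 to 3 of 4 for the combination against DMSO and against Crizotinib, from 0 to 1 for PD173074 against DMSO and from 0 to 2 for the combination against PD173074. Leaving out 1 line without the block gave 0 to 1 for the combination against DMSO and against Crizotinib, and the calls lost were those of Omd without A1129 or A1471. With the block and 1 line left out the counts were 2 to 3 for both of these, 0 to 1 for PD173074 against DMSO and 0 to 1 for the combination against PD173074. DESeq2, its size factors, no filter on low counts and the limit on the fold change left the count of members as it was in all 6 comparisons. So did only the groups compared in the 5 comparisons of 2 treatments, with 1 or 2 members tested in place of 4; it gives no departure from additivity.

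Over all genes the block gave 7578 calls against 1990 for the combination against DMSO, 7389 against 1823 against Crizotinib, 5506 against 660 against PD173074, 2241 against 127 in the departure from additivity and 296 against 0 for PD173074 against DMSO. DESeq2 gave 3027, 2930, 1528, 462 and 14 in the same order. No filter gave 1160, 1146, 401 and 66 for the first 4, only the groups compared gave 594, 616 and 117 for the first 3, and the limit on the fold change gave 794, 741 and 267. Without 1 line the lowest counts were 120, 109, 60 and 0.

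The fitted log2 fold change of Ogn moved by more than the spread between lines only without A1005, the line with most of its counts under DMSO, to 8.80 for the combination and 7.01 for PD173074 against DMSO. The sign of Bgn, which passed no test, reversed with PD173074 without A1005 (-0.073, and -0.11 with the block, against 0.28 without A1471), and with Crizotinib under the block (-0.014) and without A1471 (-0.028, and -0.060 with the block, against 0.030 without A1005). Without A1129 it was too low to be tested. Its r with Ogn was -0.46 without A1005 and 0.77 without A1129. The cause was not tested. The median change of all genes moved by less than 0.1 on the log2 scale under every scaling. With 0 or 1 counts of Omd in each library without PD173074 and 0 of Aspn in each DMSO library, depth limits how closely their folds can be given.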
